A study of Citrullus lanatus with 6 samples.

Results

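ClNAC56 is a transcription factor of watermelon (Citrullus lanatus), and the peaks described here are its binding sites near the ends of the chromosomes. NAC proteins are a plant-specific family of transcription factors that bind DNA, mostly as dimers, through a conserved domain at their N-terminal side. Family members are known from development, senescence, fruit ripening and stress responses. In many plant genomes genes lie more densely along the outer arms, while repeats gather around the centromere. Where a factor's sites lie along the arms can therefore be compared with that layout, although genes were not annotated here.

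The assay was DNA affinity purification sequencing, in which naked genomic DNA is offered to an in-vitro-expressed protein and the fragments it retains are sequenced. The series has 6 samples of leaf genomic DNA, 3 with ClNAC56 and 3 with MBP, a maltose-binding protein that served as the control. Among the MBP titles, 2 are alike but for a suffix, so these may not be separate preparations. The DNA carries no chromatin, so the peaks report binding in vitro and not occupancy in a leaf. The deposited files are peak lists, of which T2 with 2846 peaks and T3 with 3288 peaks are distinct, and which library or libraries stand behind each list is not given. They are read as ClNAC56 peaks because the series is about ClNAC56 binding and MBP is its control.

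A site was a T3 peak on one of the 11 assembled chromosomes that overlapped a T2 peak by at least 1 bp. This gave 2487 shared peaks. A shared peak was counted at a chromosome end when its T3 summit lay in the first 10% or the last 10% of the length, with the length taken as the largest peak end in either list. By this rule 661 of the 2487 shared peaks (26.6%, 95% Wilson interval 24.9 to 28.4) lay at an end, in zones that make up 20% of the length. The first 10% held 292 of them and the last 10% held 369. The remaining 1826 shared peaks are called elsewhere below.

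The ends held more ClNAC56 sites per length than the rest of the chromosomes. Density at the ends was 9.13 shared peaks per Mb, against 6.31 elsewhere. Per chromosome the ratio of these densities was 1.45 ± 0.159 (mean ± SD, n = 11 chromosomes), from 1.19 on chromosome 4 to 1.77 on chromosome 6, and the ends were denser on 11 of 11 chromosomes. Position chose these sites, so the ratio is a description and was not tested.

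The higher density was not a step at the 10% limit. With both sides joined, density in steps of 10% from the end inward was 9.13, 7.98, 7.57, 5.55 and 4.12 shared peaks per Mb. The sides differed. In bins of 5% from base 1 inward, the mean over chromosomes was 7.40, 8.51, 7.79, 6.85 and 8.68 per Mb. From the last end inward it was 10.5, 10.3, 8.29, 8.88 and 7.35. The first side thus showed no steady fall over its outer 25%. The zone next to the ends, from 10% to 20%, was denser than the mean of elsewhere on 9 of 11 chromosomes, and the ends were denser than this zone on 10 of 11. The sparse part was the middle. Within the ends counts varied without a steady trend. Steps of 1% of the length held from 54 to 77 sites, and the outer 5% held 323 and the next 5% held 338.

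**Figure D1:**
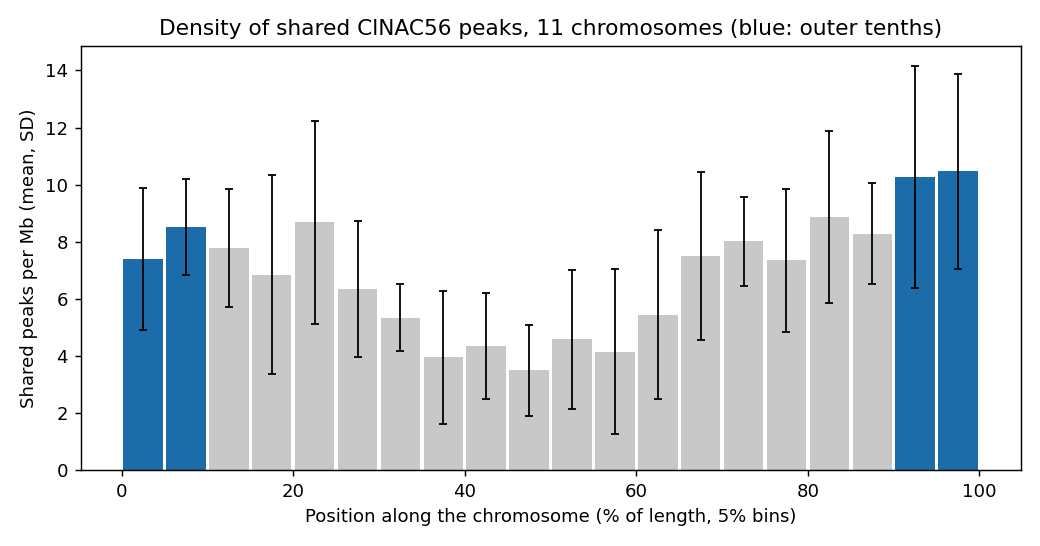
Shared ClNAC56 peaks per Mb (vertical axis) in bins of 5% of the chromosome length (horizontal axis); bars are means over 11 chromosomes, error bars are the SD, and blue bars are the outer 10% at each end. The last 2 bins, at 10.3 and 10.5 per Mb, are the highest, and the bin from 45% to 50% is the lowest at 3.49.

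Peaks found in a single list were also denser at the ends. Of the 800 T3 peaks with no T2 partner, 206 (25.8%, Wilson interval 22.8 to 28.9) lay at the ends, and of the 354 T2 peaks with no T3 partner, 91 (25.7%, 21.4 to 30.5). The ratio of densities, pooled over chromosomes, was 1.39 for T3-only peaks, 1.38 for T2-only peaks and 1.45 for shared peaks. The intervals of the shares overlap. No peak list of the MBP control was analysed here, so the same distribution in the absence of ClNAC56 was not measured.

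Single ends differed widely. The densest was the last end of chromosome 6, with 47 sites in 2.94 Mb, or 16.0 per Mb (exact Poisson 95% interval 11.7 to 21.2). The sparsest was the last end of chromosome 3, with 14 sites in 3.16 Mb, or 4.43 per Mb (2.42 to 7.43). These intervals do not overlap, but the ends were picked as the highest and lowest of 22, so this is no test. The intervals also treat peaks as independent and hold no error between libraries.

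In order of density, the last end of chromosome 6 was followed by the last ends of chromosome 8 at 13.9 per Mb (9.86 to 19.0), chromosome 11 at 13.6 (9.83 to 18.4) and chromosome 5 at 11.2 (7.97 to 15.2). The intervals of these neighbours overlap, so their order is not resolved. At the low end, the first ends of chromosome 4 at 5.17 per Mb (2.83 to 8.67) and of chromosome 8 at 5.69 (3.25 to 9.24) came next to the last end of chromosome 3. The median end had 8.82 sites per Mb.

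Compared with the rest of its own chromosome, a single end was denser in 19 of 22 cases. The exceptions were the last end of chromosome 3 and the first ends of chromosomes 4 and 8. The Poisson interval lay above the density elsewhere on the same chromosome at 10 of 22 ends and below it at 0 of 22. At the other ends, these exceptions among them, the interval held the density elsewhere. These intervals treat peaks as independent, take the density elsewhere as fixed and were not adjusted for 22 ends, so no end was tested. On chromosome 8 the last end had 13.9 and the first 5.69 sites per Mb, against 6.45 elsewhere. As with the pooled density, these counts are a description.

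The last end was denser than the first on 8 of 11 chromosomes, with a mean of 10.4 ± 3.29 sites per Mb against 7.95 ± 1.60 (SD, n = 11). The difference, first minus last, was -2.41 ± 4.34 per Mb (exact two-sided sign-flip permutation test over chromosomes, p = 0.0947, adjusted p = 0.347). It did not pass the threshold of 0.05 after adjustment over 11 tests, and its 95% interval, from inverting the test, ran from -5.28 to 0.54. First and last follow the numbering of the assembly. They are also not measured alike, because the last end begins at the last peak while the first begins at base 1 and the first peak of a chromosome started 26.3 to 366.7 kb further in. Counted from the first peak instead, a choice made after seeing the data, the difference was -1.95 per Mb (permutation p = 0.168).

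**Figure D2:**
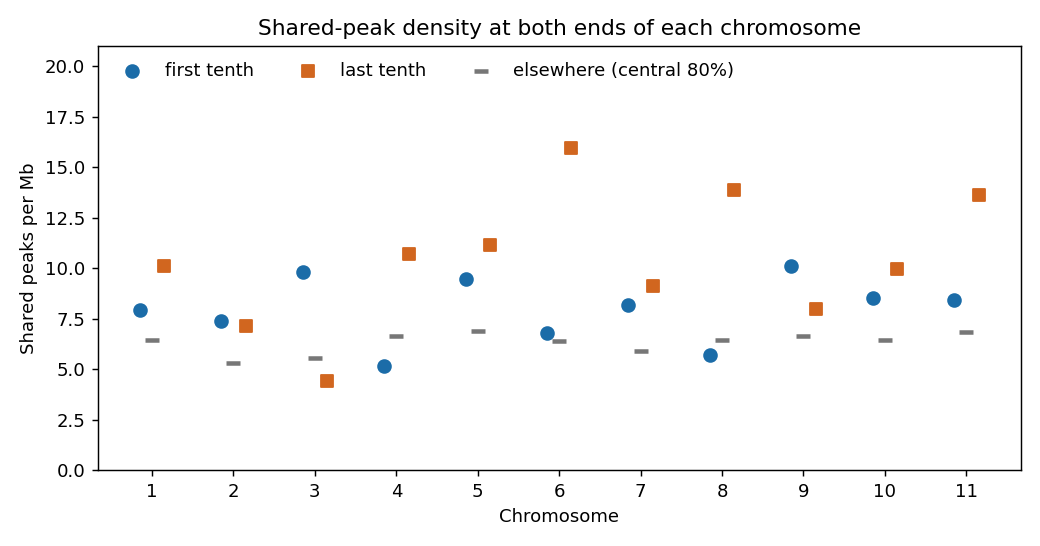
Shared peaks per Mb (vertical axis) on each chromosome (horizontal axis), for the first 10% (blue circles), the last 10% (orange squares) and elsewhere (grey bars); each symbol is 1 count over its length, with no replicate. The last ends of chromosomes 6, 8 and 11 stand highest, and 3 of 22 ends lie below the grey bar of their own chromosome.

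The terminal 1 Mb of each of the 22 ends held 193 of the 661 sites, where the end zones are 72.4 Mb long in all. It held 68 of 292 sites at the first ends and 125 of 369 at the last ends, whose limit is set by a peak. It held 17 at the last ends of chromosomes 8 and 10 and 16 at the last end of chromosome 6. It held as few as 2 at the first end of chromosome 2, where the outermost site lay 335 kb in. The densest stretch of 1 Mb within any end lay on chromosome 6, with 23 summits from 27082881 to 28039929. Their T3 folds ran from 4.03 to 16.5 with a median of 6.87, so this stretch held many sites of ordinary strength.

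ClNAC56 sites came close to the last sequence covered by the lists. At 9 of 11 last ends the outermost site had its summit within 1 kb of the end of the length, which is built in because a peak sets that length. At the first ends, where base 1 sets the limit, the outermost site lay 50.8 kb in on chromosome 5, 91.4 kb in at the median and 381.6 kb in on chromosome 1. The outermost site of chromosome 6, from 29433622 to 29434218, was also the strongest of its end, with folds of 18.1 in T2 and 23.6 in T3. At the first end of chromosome 3 the outermost site, from 77760 to 78207, was among the weak ones, with folds of 2.93 and 2.52.

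ClNAC56 sites at the ends were not shown to be stronger or weaker than sites elsewhere. Fold enrichment, the authors' ratio of the pileup at a summit to the caller's background, had a median of 6.53 at the ends (interquartile range 5.39 to 8.59) and 6.53 elsewhere (5.28 to 8.54) in list T3. In list T2 it was 6.08 (5.13 to 8.0) at the ends and 6.11 (5.04 to 7.88) elsewhere.

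For the test, medians of log2 fold were taken per chromosome and the ends compared with elsewhere on the same chromosome. In T3 the difference was 0.0073 ± 0.083 (mean ± SD, n = 11), with the ends higher on 4 of 11 chromosomes (two-sided exact test by sign flips, permutation p = 0.781, adjusted p = 0.859). Its 95% interval, as a ratio, was 0.966 to 1.05. In T2 the difference was -0.010 ± 0.078, with the ends higher on 3 of 11 (p = 0.679, adjusted p = 0.859 by the same exact test), and the interval was 0.960 to 1.03. Chromosomes served as units because peaks are not replicates. These p-values describe the spread between chromosomes within these lists, hold no error between libraries, and the lists may share reads or a control.

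By chromosome, the median T3 fold at the ends ran from 6.08 on chromosome 7 to 7.35 on chromosome 8, and elsewhere from 6.06 on chromosome 11 to 6.99 on chromosome 3. Both ranges overlap. The first ends alone differed from elsewhere by 0.034 ± 0.12 on the log2 scale (permutation p = 0.383, adjusted p = 0.842) and the last ends alone by -0.0040 ± 0.097 (permutation p = 0.896, adjusted p = 0.896). Among the 22 ends the median T3 fold ran from 5.89 at the first end of chromosome 4 to 7.86 at the first end of chromosome 3, and 10 of 22 were above the median elsewhere on their chromosome.

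The fragments at the summit and the background that divides the pileup had slightly higher medians at the ends, by differences that did not pass after adjustment. The median summit was covered by 143 fragments in T3 at the ends (interquartile range 111 to 195) and 135 elsewhere (105 to 191). In T2 the medians were 147 and 142. The fragment number is the deposited pileup divided by the constant of which all pileups of a list are whole multiples.

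Per chromosome, the T3 fragments at the ends were 1.05 times those elsewhere (95% interval 1.01 to 1.09), higher on 7 of 11 chromosomes (exact sign-flip permutation p = 0.0371, adjusted p = 0.258). The T3 background was 1.04 times as high (1.0 to 1.09), higher on 8 of 11 (permutation p = 0.0469, adjusted p = 0.258). With end zones of 15% or 20% both passed, with adjusted p from 0.0107 to 0.0376 by the same permutation test. Both were lower at the ends when only the neighbouring 10% to 20% was used for comparison, a choice made after seeing the data, with log2 differences of -0.043 for fragments and -0.053 for background (permutation p = 0.380 and 0.263).

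The background was lowest where sites were sparsest. Its median in T3 was 4.19 at the ends, 4.46 from 10% to 20%, 4.0 from 20% to 30%, 3.89 from 30% to 40% and 3.48 in the central 20%, in pileup units. Median fragments ran 143, 144, 137, 128.5 and 127.5 over the same steps, and median T3 folds 6.53, 6.40, 6.56, 6.55 and 6.90. The lower quartile of the T3 background was 2.795 in the central 20%, close to the lowest value of the list, 2.794. It was 3.59 at the ends. The part of the background in the density of sites was not tested.

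**Figure D3:**
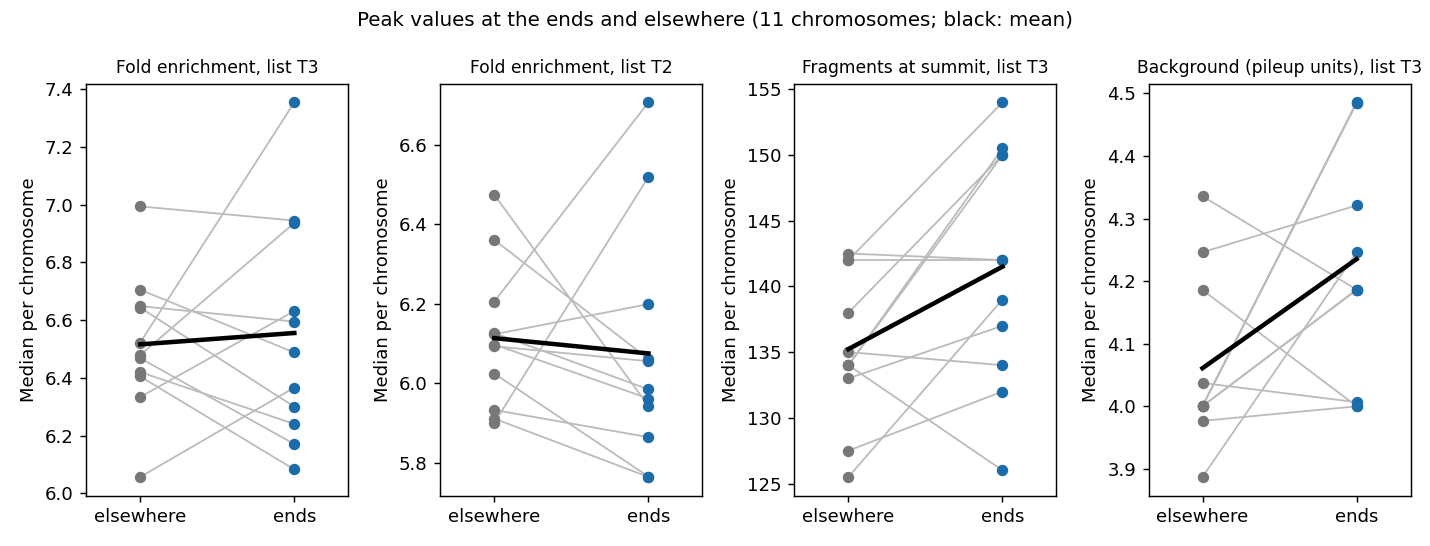
Median per chromosome (vertical axes, not starting at 0) of the T3 fold, the T2 fold, the T3 fragments at the summit and the T3 background, for shared peaks elsewhere and at the ends; each pair of joined points is 1 of 11 chromosomes and the black line joins their means. Lines for the folds run both up and down, and most lines for fragments and background run up.

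Counts of strong sites were near their share over all shared peaks. Folds in T2 and in T3 both reached 5 at 497 of the 661 sites at the ends (75.2%, Wilson interval 71.8 to 78.3), against a background of 73.3% over all shared peaks. Both reached 10 at 88 sites (13.3%, 10.9 to 16.1), against 12.5% over all, and both reached 20 at 7 (1.06%, 0.514 to 2.17), against 1.33%. Each background share lies within the interval of the ends. Of the 100 strongest shared peaks by the lower of the T2 and T3 folds, 22 lay at the ends, and of the 500 strongest 148 did (29.6%), shares that lie below and above the 26.6% of all shared peaks.

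The strong sites were spread unevenly among the ends. At the first end of chromosome 3, T2 and T3 folds both reached 10 at 10 of 31 sites. At the last end of chromosome 8 they did so at 8 of 39, and at the first end of chromosome 7 at 0 of 26. The median end held 4. The first end of chromosome 3 thus held the most strong sites. The last end of the same chromosome, the lowest of all in density, held 4 among its 14 sites. Over all shared peaks the share was 12.5%, and the shares of single ends were not tested.

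Ranked by the lower of the T2 and T3 folds, the strongest site at an end lay near the last end of chromosome 10, from 34460578 to 34461239, 634 kb from the end. Its folds were 39.6 in T2 and 61.9 in T3. The T2 summit held 1032 fragments (970 to 1097, exact Poisson 95% limits) and the T3 summit 1456 (1382 to 1533). The backgrounds were 4.86 in T2 and 4.78 in T3, in pileup units, which are not fragment numbers. This site ranked 3 among all 2487 shared peaks, and its summit was the same base, 34460895, in both lists.

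The next site by rank lay in the first end of chromosome 3, from 1708811 to 1709523, with folds of 38.1 and 55.6. It had more fragments than the chromosome 10 site, 1526 in T2 (1450 to 1605) and 2039 in T3 (1951 to 2130). Its background was also higher, at 8.0 pileup units in both lists. Another site of the last end of chromosome 10, from 35031579 to 35032286, came next with 36.4-fold enrichment in T2 and 49.7-fold in T3, only 63.3 kb from the end. These sites hold ranks 3, 4 and 5 of all shared peaks, and the next site at an end ranked 21.

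That site lay in the first end of chromosome 5, from 1734455 to 1735069, with folds of 22.2 in T2 and 32.3 in T3. The same end held another of the 10 strongest, from 2549575 to 2550212, with folds of 19.0 and 30.5, the largest T3 to T2 ratio of the 10 at 1.60. The last end of chromosome 9 held a site from 35242648 to 35243249 with folds of 21.5 and 31.1. These folds are close to each other and well below those of the leading 3 sites.

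The remaining strong sites lay on chromosome 3 from 28498953 to 28499541 (T2 fold 21.4, T3 fold 24.9), chromosome 11 from 29160897 to 29161498 (20.4 and 26.1), chromosome 8 from 25568527 to 25569176 (19.9 and 26.8) and chromosome 6 from 2080727 to 2081359 (18.7 and 21.8). The chromosome 3 site lay 9.90% of the length from the end, next to the limit. The chromosome 6 site had the fewest fragments of the 10, with 329 in T2 (294 to 367) and 352 in T3 (316 to 391). At each of the 10 sites the T3 fold was the higher one, against 70.6% of all shared peaks. Ratios of T3 to T2 at the 10 sites lay between 1.16 and 1.60, and no pair of summits was more than 15 bp apart. Neither the genes nor the sequence at these sites were read, because no genome was used.

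The strongest site of an end varied widely in strength. The lower of its folds ran from 9.62 to 39.6 over the 22 ends, with a median of 16.5. It was lowest at the first end of chromosome 7, where the site from 468281 to 468756 had folds of 9.62 in T2 and 11.9 in T3. At the first end of chromosome 4 the strongest site, from 1590435 to 1590891, had folds of 11.3 and 10.9, so that T2 gave the higher value there.

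List T3 gave higher folds than T2 at the ends, as it did over all shared peaks. The T3 fold exceeded the T2 fold at 477 of 661 sites (72.2%, Wilson interval 68.6 to 75.4), against 70.6% over all shared peaks. The median ratio was 1.08 at the ends (interquartile range 0.990 to 1.18) and 1.07 elsewhere (0.982 to 1.18). Per chromosome, the log2 ratio at the ends differed from that elsewhere by 0.0097 ± 0.020 (exact sign-flip permutation p = 0.142, adjusted p = 0.389), higher on 9 of 11 chromosomes, and did not pass the threshold.

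**Figure D4:**
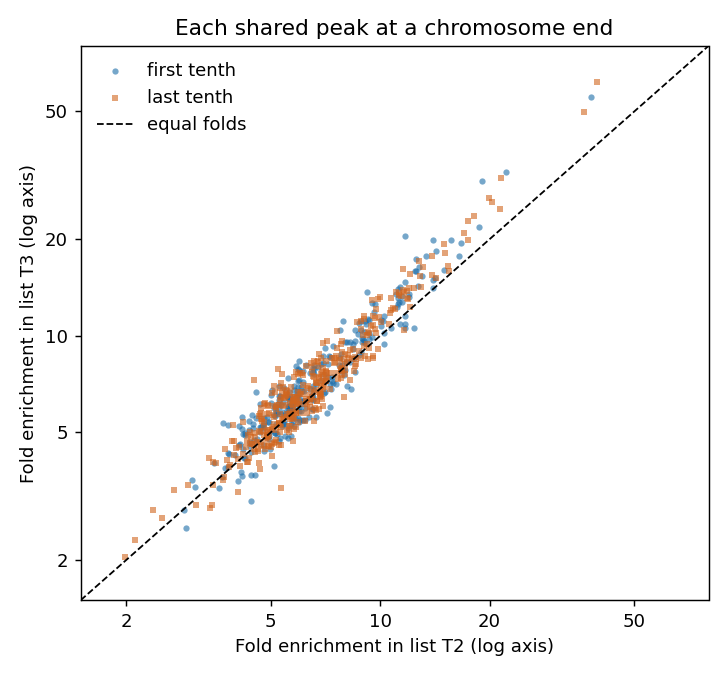
Fold enrichment in T3 (vertical log axis) against T2 (horizontal log axis) for each of the 661 sites at the ends, in the first 10% (blue circles) and the last 10% (orange squares) of a chromosome; the dashed line marks equal folds. Most points lie above the line, with 3 sites standing apart above folds of 36 in both lists, and both kinds of end cover the same range.

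T3 peaks at the ends were not shown to be shared more or less often than T3 peaks elsewhere. Of the 867 T3 peaks in the end zones, 661 were shared (76.2%, Wilson interval 73.3 to 79.0), against 75.7% over all T3 peaks on assembled chromosomes and 75.5% elsewhere. The mean difference per chromosome was 1.10 ± 5.81 percentage points (permutation p = 0.548, adjusted p = 0.859). Single ends ranged from 53.8% at the last end of chromosome 3, which was also the sparsest, to 87.9% at the last end of chromosome 4. Both ends of that range rest on few peaks, 26 and 33.

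Peak width was not shown to differ either. The median T3 width was 404 bp at the ends (interquartile range 359 to 463) and 401 bp elsewhere (356 to 461), and the difference per chromosome was 2.18 ± 17.6 bp (permutation p = 0.705, adjusted p = 0.859, interval -9.93 to 14.3). Summits of both lists lay a median of 7 bp apart in each zone, and within 100 bp at 649 of 661 sites at the ends (98.2%), against 98.1% over all. The summit was the identical base at 50 sites (7.56%, 5.78 to 9.83), against 5.75% over all, just below that interval. Elsewhere the share was 5.09% (4.18 to 6.20), and this difference was not tested. A single site at the ends overlapped 2 T2 peaks (0.151%), against 0.0804% over all.

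Median spacing between sites was shorter at the ends, which follows in part from the density and was not tested. The nearest shared summit lay a median of 37.2 kb away at the ends, 41.4 kb at the first and 32.7 kb at the last ends, against 47.2 kb elsewhere. A neighbour within 10 kb was present at 102 of 661 sites (15.4%, Wilson interval 12.9 to 18.4), against 14.9% over all shared peaks. The share was 11.3% (33 of 292, 8.16 to 15.4) at the first ends and 18.7% (69 of 369, 15.1 to 23.0) at the last ends, which were also the denser ones on most chromosomes. This difference between first and last ends was not tested. Per chromosome the share differed from elsewhere by 1.30 ± 8.28 percentage points (permutation p = 0.614, adjusted p = 0.859). It was higher at the ends on 6 of 11 chromosomes. On chromosome 4 it was 32.6% at the ends and 16.0% elsewhere, and on chromosome 2 it was 3.64% and 7.50%. On chromosome 9 it was 8.82% at the ends and 23.0% elsewhere, so the direction differed between chromosomes.

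These 102 close neighbours formed 48 runs on 17 of the 22 ends, 42 of them pairs and 6 of them runs of 3 sites. The last end of chromosome 4 held a pair of the runs of 3. In the run with summits from 26405538 to 26415033, T3 folds reached from 4.04 to 17.7, and in the run from 24859203 to 24864486 from 3.96 to 6.17. A strong and a weak site could lie very close, as near the last end of chromosome 1, where summits at 33751024 and 33752014 had T3 folds of 2.70 and 19.3.

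A very high background, more than 10 times the list's minimum, marked 4 of the 661 sites (0.605%, Wilson interval 0.236 to 1.55), against 0.885% over all shared peaks. A pair of them lay 4.83 kb apart on chromosome 11, from 29089305 to 29089763 (T2 fold 1.99, T3 fold 2.04) and from 29094131 to 29094579 (2.12 and 2.31), over T3 backgrounds of 382 and 424. The others lay on chromosome 5 from 397252 to 397626 (2.88 and 2.86, T3 background 263) and on chromosome 8 from 26320968 to 26321388 (3.72 and 3.63, T3 background 31.0). The chromosome 11 sites had the most fragments of this set in T3, 3185 and 4001, and yet low folds, because the background divides the pileup.

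Sites just inside and just outside the 10% limit covered a like range of folds. The site just inside the limit at each end lay 8.77% to 9.99% of the length from the end, with T3 folds from 3.31 to 24.9 and a median of 6.47. The shared peak just outside lay no more than 10.9% from it, with T3 folds from 3.97 to 23.7 and a median of 6.65. Across the 661 sites, Spearman's rho of the T3 fold with the distance from the end was -0.0079, a description over peaks that share a library. Sites in the central 20% of the chromosomes, 298 in number, had median folds of 6.90 in T3 and 6.38 in T2, above the 6.53 and 6.08 at the ends. Against them alone, a choice made after seeing the data, the log2 fold difference per chromosome, ends minus centre, was -0.051 in T3 (ends higher on 2 of 11, permutation p = 0.233, adjusted p = 0.367) and -0.085 in T2 (1 of 11, permutation p = 0.0791, adjusted p = 0.261).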

How the data were processed

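Peak lists of leaf genomic DNA bound in vitro were analysed. Bowtie2, Picard, MACS2 and bedtools are named in the submitters' processing notes. Versions, parameters, genome build and pooling of libraries are details not given in the sources used here. Sheets T1 and T3 agreed in all 3288 rows and were used once. Per the file headers, the authors deposited a pileup signal and a fold enrichment ratio per peak. The deposited −log10 p and −log10 q columns have damaged headers, were recognised by the column order of MACS2, and were not used further. Depth is known only as fragments at a summit, the pileup divided by 0.224 (T2) or 0.245 (T3), and the fewest were 51 and 47. Background is (pileup + 1) / fold − 1. A T3 peak overlapping several T2 peaks took the one with the largest overlap. Per-chromosome medians (for shares, percentages) at the ends and elsewhere were compared by exact two-sided sign-flip permutation tests over 11 chromosomes, whose smallest p is 0.000977, with Benjamini-Hochberg adjustment over 11 tests. The test of the T3 fold at the ends was checked on simulated data, made by shuffling folds over all shared peaks. The other tests were not checked in this way. Intervals have 95% confidence, are Wilson, exact Poisson or inverted tests, and cover counting error or the spread between chromosomes only. Named regions are the 10 sites with the highest lower fold of T2 and T3, the strongest and outermost site of each end, those beside the 10% limit and the densest and sparsest ends; the 1 Mb stretch, close runs and sites of high background were picked after their values were seen. Members and tests were chosen with earlier results of these data known. Alternatives varied these choices. Python 3.11.15, numpy 2.4.6, pandas 2.3.3 and scipy 1.17.1 were used.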

Additional observations from a re-analysis of the deposited data

How the results depend on the processing

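The density ratio stayed above 1 under every alternative run. Its median over chromosomes was 1.44, and it was 1.13 against the neighbouring 10% to 20% and 2.28 against the central 20%, both chosen after seeing the data. The number of sites was 323 with an outer 5% and 1239 with an outer 20%. No tested difference in fold, width, T3 to T2 ratio, sharing, spacing or density between ends passed after adjustment in any alternative. Those of fragments and background did in 6 cases. The log2 fragment difference was 0.11 with an outer 15%, 0.12 with an outer 20% and 0.15 against the central 20% (adjusted permutation p = 0.0376, 0.0322 and 0.0430). The log2 background difference was 0.11, 0.13 and 0.27 (adjusted permutation p = 0.0322, 0.0107 and 0.0215). Against the neighbouring 10% to 20% they were -0.043 and -0.053. The cause was not tested.

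Differences near 0 changed sign without passing. The log2 T2 fold difference was 0.020 with an outer 5%, 0.028 with 15%, 0.011 with 20%, 0.0043 with a fixed 3 Mb, 0.0046 with folds of at least 5 and 0.027 with means, and it was largest in size, at -0.085, against the central 20%. The T3 difference was -0.0092 with an outer 20% and -0.051 against the central 20%. For the first ends it was -0.033 with an outer 5%, -0.018 with 20%, -0.0029 with folds of at least 5 and -0.024 against the central 20%. For the last ends it was 0.054, 0.022 and 0.024 with an outer 5%, 15% and 20%, 0.00020 with 3 Mb, 0.00083 with reciprocal 50% overlap, 0.0039 with summits within 100 bp and 0.0088 with means. The share of T3 peaks shared differed by -0.225 points with an outer 5% and -0.456 with 20%, and the share with a close neighbour by -0.142 with 15% and -0.322 with 20%. With means, width differed by -2.59 bp and the log2 T3 to T2 ratio by -0.00050.

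Leaving out each chromosome gave -0.0093 to 0.016 for the log2 T3 fold, -0.025 to 0.0013 for T2, -0.018 to 0.016 for the last ends and 0.017 to 0.051 for the first. It gave -0.50 to 4.30 bp for width, -0.0074 to 1.81 points for sharing and -0.227 to 2.85 for close neighbours. The remaining ranges were 0.054 to 0.079 for log2 fragments, 0.049 to 0.073 for log2 background, 0.0077 to 0.015 for the log2 ratio and -3.19 to -1.74 per Mb for first minus last. None of these passed after adjustment.

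No paired analysis was possible because the labels tie no list to a sample. The depth of the libraries is unknown, and the fewest fragments at a site at the ends were 59 in T2 and 56 in T3.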
